A study of Mus musculus with 8 samples.

Results

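Wild-type mouse embryonic stem cells (mESCs) were flown on a recoverable satellite and compared with cells of the same line kept on the ground. The 4 libraries of wild-type cells were taken by their labels (R9wt) from the 8 libraries of the series. Each space library was set against the ground library of the same culture time, and the genes that moved the same way at both times were separated from those that moved in opposite directions. The libraries were Space_R9wt_D1 and Ground_R9wt_D1, from cells cultured for 1 day, and Space_R9wt_D5 and Ground_R9wt_D5, from cells cultured for 5 days, all Rad9+/+. The other 4 libraries of the series held Rad9-/- mESCs (R9del) at the same locations and culture times and were not used to choose genes. For the culture of 5 days, more cells were seeded for R9del than for R9wt. The classes found in R9wt were looked up in the R9del libraries.

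The cultures of both locations grew in the same sealed kind of payload, with a temperature control but no control of oxygen or carbon dioxide, and were fixed in RNAlater at the end of culture. Space and ground differed in microgravity, space radiation, other stress of the flight and the vibration of launch and return, and these cannot be told apart here. Fewer cells were seeded for the longer culture, and the devices of the 2 culture times had separate temperature controls, so culture time cannot be told apart from seeding or device group. Each condition was a single library of 1 line, and fewer cells of a type and less RNA per cell cannot be told apart in such bulk samples.

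Embryonic stem cells are grown from the inner cell mass of the blastocyst and can form all tissues of the embryo. Transcription factors such as Oct4 (Pou5f1), Sox2 and Nanog hold them in this state, while Nodal and FGF signals move them toward a primed state that precedes the germ layers. They divide fast, with a large part of each cycle spent in S phase, when replication-dependent histone genes are transcribed. Glycolysis supplies much of their energy, and its genes are raised by the hypoxia-inducible factors when oxygen is low.

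The table of counts held 64673127 counts for Space_R9wt_D1, 91390994 for Ground_R9wt_D1, 60801746 for Space_R9wt_D5 and 96416907 for Ground_R9wt_D5. The space libraries were therefore the smaller of each pair. Small counts piled up on the values 4, 7, 10, 14, 17 and 20, near multiples of 3.33, and 35.7% to 38.5% of the counts up to 34 in these libraries fell on such values against 29.4% of the whole numbers up to 34. A low count was for this reason read in steps of 3.33, and the floor was set at 3 steps, or 10 counts, which is 0.104 to 0.164 CPM (counts scaled to a library of 1e6). The Rad9+/+ label was checked on Rad9a. This subunit of the checkpoint clamp that the series deleted in its other line stood at 87.9 and 92.5 CPM of the unscaled total in Ground_R9wt_D1 and Space_R9wt_D1 and at 79.75 and 70.6 in Ground_R9wt_D5 and Space_R9wt_D5, against 21.6 to 29.1 in the R9del libraries. The summed share of all annotated genes on the mitochondrial chromosome was 2.47% in Ground_R9wt_D1 and 1.12% to 1.37% in the other 3 R9wt libraries. It was 1.46% to 3.39% in the R9del libraries.

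Of the genes, 16648 reached 1 CPM in at least 1 R9wt library. After 1 day, 2325 of them (14.0%) were at least 2-fold higher and 3263 (19.6%) at least 2-fold lower in space, and after 5 days 2668 (16.0%) were higher and 3227 (19.4%) lower. With 1 library a condition these are differences between libraries and have no test. Both days agreed for 1363 genes that were lower (8.19%) and 461 that were higher (2.77%). The direction reversed in 423 genes that were higher at D1 and lower at D5 (2.54%) and in 426 that were lower at D1 and higher at D5 (2.56%). At D1 only, 1441 genes were higher (8.66%) and 1474 lower (8.85%), at D5 only 1781 were higher (10.7%) and 1441 lower (8.66%), and 7838 genes (47.1%) passed 2-fold at neither day.

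Agreement was thus found mostly among genes that were lower in space. Of the genes that were lower at D1, 41.8% were lower and 13.1% higher at D5. Of those lower at D5, 42.2% were lower and 13.1% higher at D1. Of the genes higher at D1, 19.8% were higher and 18.2% lower at D5, so over all levels the higher genes agreed and reversed in near equal numbers. Most of these were low: the median of the mean level was 2.39 CPM for those that agreed up and 2.04 CPM for those up and then down. It was 15.8 CPM for all genes tested. Among genes averaging 10 CPM or more, 141 agreed up and 89 were up and then down. Of the 2260 genes whose mean over the 4 libraries reached 100 CPM, 153 agreed down, 22 agreed up, 11 were up and then down, and 19 were down and then up. Near the threshold, E2f5 was just inside the group that agreed down, with log2 ratios of -1.004 and -1.05, and Ostf1 just outside with -1.31 and -0.998. Tubgcp3, at 0.9997 and 1.05, was just outside the group that agreed up, and Cog6, at 1.003 and 1.35, just inside.

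**Figure D1:**
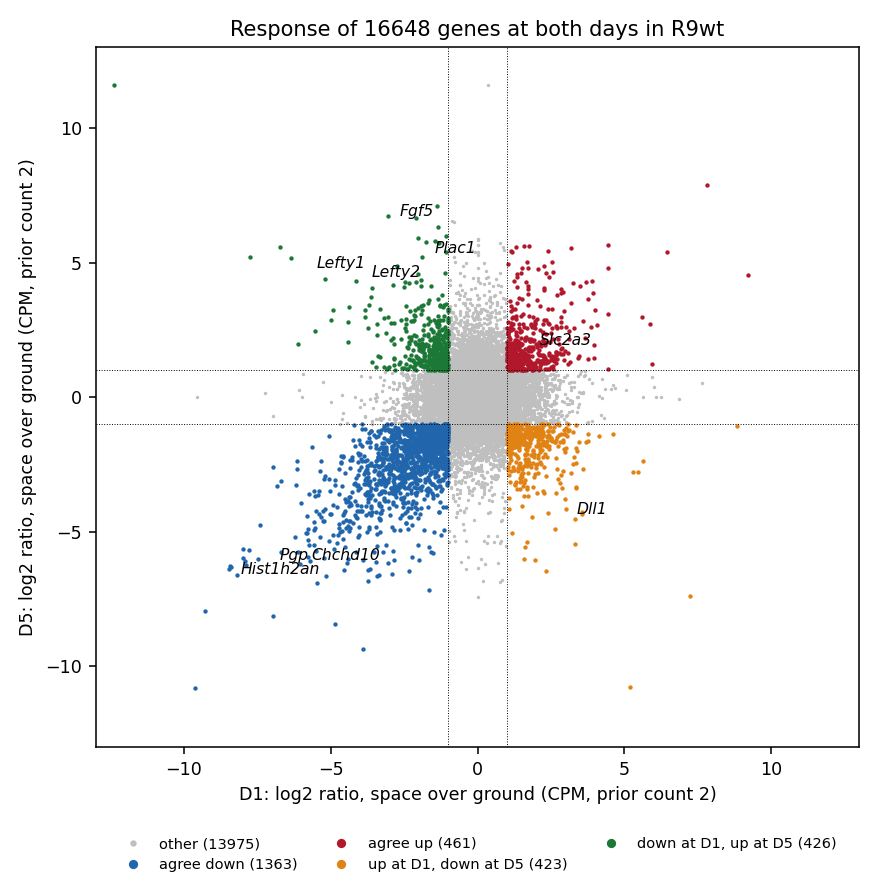
Log2 ratio of space over ground at D1 (horizontal) against that at D5 (vertical) for the 16648 genes tested in R9wt, each point 1 gene; dotted lines mark 2-fold. The lower left holds the 1363 genes lower at both days, and the other 3 corners hold 423 to 461 genes each.

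A paired fit over the 4 libraries, with culture time as a block, tested the change common to both days. By the quasi-likelihood test of edgeR, at 2-fold or more and an unadjusted p below 0.05, 1325 genes fell (7.96% of those tested) and 425 rose (2.55%). After Benjamini-Hochberg adjustment 284 fell (1.71%) and 5 rose (0.0300%). This fit has 1 residual degree of freedom, which is how far the change differed between the days. It borrows its spread from the other genes, and those that reversed are among them. The adjusted calls depended on the set of genes tested and on the tool. No gene passed the adjusted threshold without the filter on low counts, where 1360 fell and 454 rose at the unadjusted threshold. In DESeq2's Wald test 833 fell and 135 rose after adjustment. The adjusted calls also changed in fits with 1 library left out. Those fits dropped the block on day as well and kept 1 library on a side, so the part of the single library cannot be read from them. When the libraries were scaled by their totals alone, the split at the unadjusted threshold became 1175 down and 710 up, and the median log2 ratio of all genes moved from -0.11 to 0.03 at D1 and from -0.01 to 0.10 at D5.

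The genes named first are those that fell with the smallest p. Chchd10, a protein of the mitochondrial intermembrane space, had 734 CPM in Ground_R9wt_D1 and 11.1 CPM in Space_R9wt_D1, and 655 and 8.83 CPM in Ground_R9wt_D5 and Space_R9wt_D5. Both space libraries were far below both ground libraries, and the paired log2 fold change was -6.13 ± 0.47 (SE, n = 2 libraries a side; edgeR adjusted p = 0.0103). Cox5a, a subunit of cytochrome c oxidase, went from 580 to 15.6 CPM at D1 and from 459 to 19.02 CPM at D5 (log2 fold change -4.91 ± 0.46), with 38.7% of its exon bases shared with another gene. Uqcrfs1, the Rieske iron-sulfur subunit of complex III, went from 374 to 15.4 CPM and from 346 to 16.6 CPM (log2 fold change -4.49 ± 0.44). Pgp, a phosphatase of phosphoglycolate, went from 186 to 2.49 CPM and from 120 to 3.26 CPM (log2 fold change -5.71 ± 0.56). The smallest adjusted p of the fit, 0.0103, was shared by these genes and by Ube2s.

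Ube2s, the ubiquitin-conjugating enzyme that extends chains for the anaphase-promoting complex, had 562 and 21.0 CPM at D1 and 730 and 20.7 CPM at D5. The level in space was again low at both days, but only 2.65% of the 50-mers in its exons occur once in the genome, so its counts may be shared with copies. Apoe, apolipoprotein E, went from 1582 to 159 CPM and from 2793 to 143 CPM (log2 fold change -3.80 ± 0.45). Mrps24, of the small mitochondrial ribosome subunit, went from 92.4 to 2.73 CPM and from 106 to 2.58 CPM. All of these were also lower at both days in R9del, where the log2 ratios of Chchd10 were -5.38 and -5.21 and those of Ube2s -3.26 and -3.94.

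The genes that rose were fewer and rose less. Dcbld2, a membrane protein with CUB and LCCL domains, had 4.93 CPM in Ground_R9wt_D1 and 35.8 CPM in Space_R9wt_D1, and 3.50 and 57.7 CPM at D5. Its paired log2 fold change was 3.45 ± 0.58 (SE, n = 2 libraries a side; edgeR adjusted p = 0.0297, and 6.09e-09 to 0.189 over the alternatives, the lowest from DESeq2), and in R9del its log2 ratios were 0.72 at D1 and -1.697 at D5, so the rise was not seen there at D5. Of its exon bases, 19.1% are shared with another gene. Slc2a3, the glucose transporter GLUT3, went from 3928 to 13080 CPM at D1 and from 2993 to 10488 CPM at D5. Its log2 fold change of 1.77 ± 0.36 missed the adjusted threshold (edgeR adjusted p = 0.0539), and over the alternatives its adjusted p lay on both sides of 0.05. Slc2a3 was higher in space at both days in R9del too, by 1.502 and 1.29 on the log2 scale.

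Sun1, a protein of the inner nuclear membrane that links the nucleus to the cytoskeleton, went from 86.4 to 320 CPM and from 76.3 to 275 CPM. Suz12, a core subunit of the Polycomb complex that methylates histone H3, went from 35.0 to 209 CPM and from 54.1 to 149 CPM. Abl2, a tyrosine kinase that acts on actin, went from 15.9 to 67.0 CPM and from 9.15 to 35.0 CPM. In each of these the space library was the higher of its pair at both days, with edgeR adjusted p between 0.0608 and 0.0977, so none passed the adjusted threshold. Rbm33, an RNA-binding protein, went from 2.56 to 40.6 CPM and from 5.22 to 20.01 CPM. In R9del the log2 ratios at D1 and D5 were 0.09 and 1.20 for Sun1, 0.10 and -0.51 for Suz12, 1.94 and 1.20 for Abl2, and 0.54 and -2.15 for Rbm33, so of these Abl2 alone was over 2-fold higher at both days there.

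**Figure D2:**
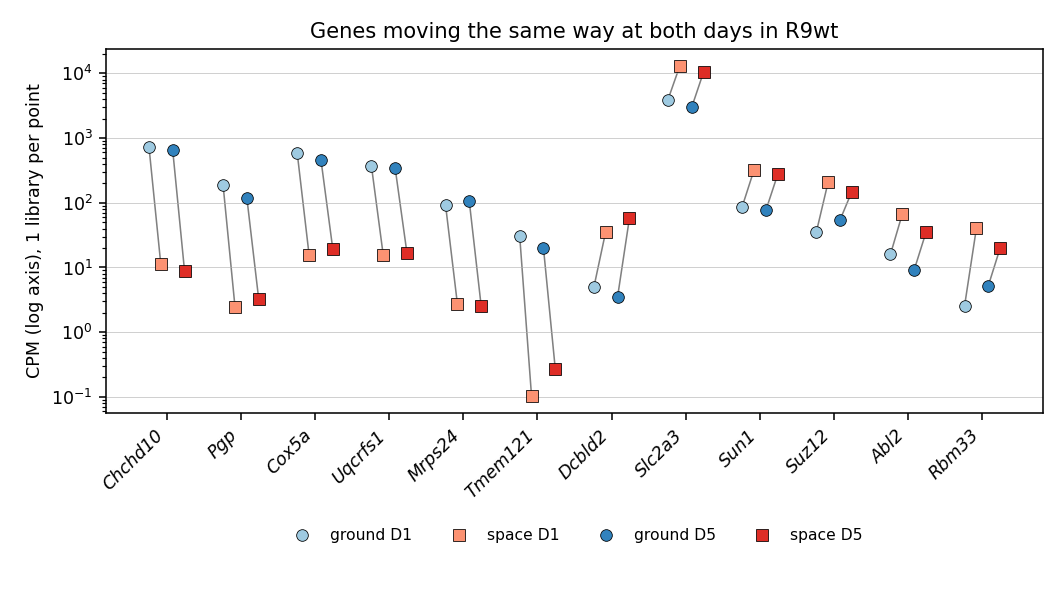
CPM on a log axis in the 4 R9wt libraries for 6 genes that were lower and 6 that were higher in space at both days; circles are ground and squares space, light for D1 and dark for D5, 1 library a point, and lines join the pairs. The space squares of Chchd10 lie at 11.1 and 8.83 CPM, under ground values of 734 and 655, and those of Slc2a3 at 13080 and 10488 CPM, over ground values of 3928 and 2993.

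The genes that agreed down differed in median base composition, which the rule did not use. These medians cover protein-coding genes only. The GC content of the GC-richest 200-nt window of the exons had a median of 75.5% for the genes that agreed down. It was 69% for all protein-coding genes tested and 66% for those that agreed up. As coding sequence of single genes, and not the window behind these medians, which may lie outside the coding part or span exons, the GC-richest 200 nt within 1 coding exon are printed for 3 named genes that fell and 3 that were higher, taken in order of p where a coding exon is long enough, from the mm9 genome, 5′ to 3′ on the strand of the gene, with CG dinucleotides in capitals. The windows of the genes that fell are at chr10:75398983-75399182 (Chchd10, plus strand, 71% GC, 15 CG), chr7:4759796-4759995 (Ube2s, minus strand, 63% GC, 4 CG) and chr17:24607456-24607655 (Pgp, plus strand, 73% GC, 28 CG). Those of the genes that rose are at chr16:58465507-58465706 (Dcbld2, plus strand, 58.5% GC, 8 CG), chr6:122679952-122680151 (Slc2a3, minus strand, 56.5% GC, 10 CG) and chr5:139702640-139702839 (Sun1, plus strand, 56.5% GC, 6 CG).
Chchd10: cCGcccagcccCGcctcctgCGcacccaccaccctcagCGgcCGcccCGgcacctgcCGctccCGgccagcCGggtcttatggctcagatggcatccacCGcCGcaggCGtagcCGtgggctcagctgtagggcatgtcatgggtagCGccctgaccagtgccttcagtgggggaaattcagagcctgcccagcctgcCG
Ube2s: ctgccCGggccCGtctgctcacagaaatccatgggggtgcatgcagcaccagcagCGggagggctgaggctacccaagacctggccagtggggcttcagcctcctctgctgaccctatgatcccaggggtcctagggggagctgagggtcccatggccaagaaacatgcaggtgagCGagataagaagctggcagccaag
Pgp: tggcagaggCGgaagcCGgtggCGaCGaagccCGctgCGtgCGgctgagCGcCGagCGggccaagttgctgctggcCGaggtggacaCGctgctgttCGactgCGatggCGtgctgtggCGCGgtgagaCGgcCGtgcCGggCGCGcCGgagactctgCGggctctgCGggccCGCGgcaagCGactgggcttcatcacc
Dcbld2: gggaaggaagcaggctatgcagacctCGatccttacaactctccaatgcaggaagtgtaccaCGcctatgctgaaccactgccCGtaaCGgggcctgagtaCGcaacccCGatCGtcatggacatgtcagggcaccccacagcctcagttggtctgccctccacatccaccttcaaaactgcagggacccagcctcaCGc
Slc2a3: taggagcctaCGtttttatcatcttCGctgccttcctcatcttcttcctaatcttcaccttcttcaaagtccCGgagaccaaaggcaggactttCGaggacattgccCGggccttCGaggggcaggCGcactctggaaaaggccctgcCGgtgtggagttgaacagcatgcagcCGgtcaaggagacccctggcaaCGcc
Sun1: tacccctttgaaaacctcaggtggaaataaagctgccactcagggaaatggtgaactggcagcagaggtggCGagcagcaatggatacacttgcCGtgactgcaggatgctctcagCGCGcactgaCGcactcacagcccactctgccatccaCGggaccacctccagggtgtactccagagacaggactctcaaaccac
In these coding windows the 3 lower genes hold more GC than the 3 higher ones, but over all exons the order is not kept. There the GC-richest 200 nt hold 73.5% GC in Chchd10, 72% in Ube2s and 75% in Pgp, and 86% in Dcbld2, 63.5% in Slc2a3 and 66% in Sun1. Suz12, Rbm33 and Abl2, also higher in space, have 84%, 82% and 79.5%, so single genes that were higher lie above the lower ones and the difference holds for the medians of the classes.

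Over all protein-coding genes tested, the share that agreed down was 4.39% where the GC-richest window held under 60% GC, 1.51% where it held 60% to 65% GC and 1.76% at 65% to 70%. It was 10.3% at 70% to 75%, 23.9% at 75% to 80% and 10.5% at 80% or more. Exon length moved with it as well. Of the 77 genes with under 1000 nt of exon and a window of at least 70% GC, 57.1% agreed down, against 7.02% of the 527 such short genes with less GC and 3.96% of the 909 genes with over 8000 nt and at least 70% GC. The genes that agreed up showed no such rise, with 3.50% in the lowest GC bin and 0.567% in the highest. After the ratios were centred within bins of window GC and exon length, which was chosen after seeing the data, 788 genes agreed down and 429 up in place of 1232 and 337 of the same 14973 genes. Of the 788 genes, 717 were among the 1232. The part of base composition and length in the lower values was not tested.

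**Figure D3:**
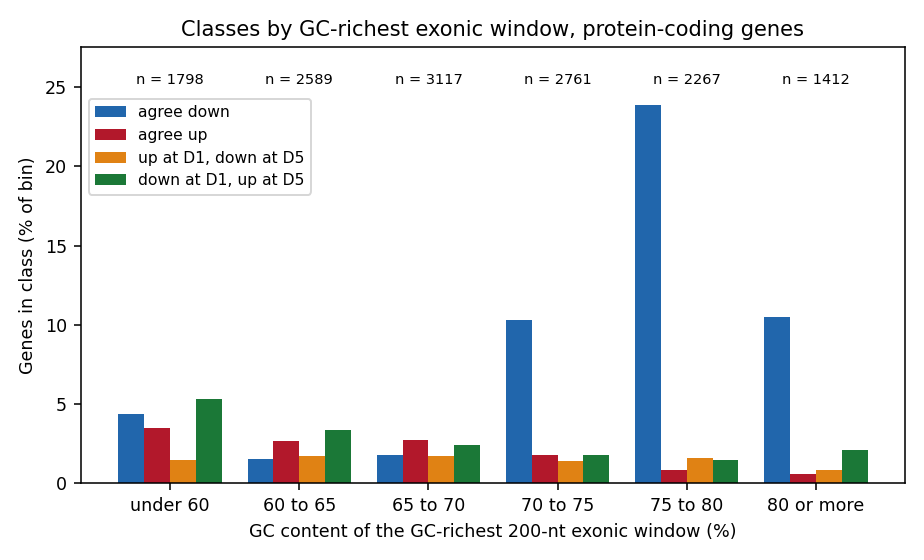
Share of protein-coding genes in each class (vertical, percent of the bin) by GC content of the GC-richest 200-nt exonic window (horizontal, percent); n is the number of genes in a bin. The genes lower at both days rise from 1.51% of the bin of 60 to 65 to 23.9% of the bin of 75 to 80.

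The classes were looked up in the R9del libraries, which took no part in choosing them. They came from the same flight and payloads as R9wt, so effects of payload, handling or flight are shared, while each condition had its own culture device. Of the 1363 genes that agreed down in R9wt, 936 (68.7%) also agreed down in R9del, against 8.30% of all genes tested, and in the paired fit of R9del 994 of the 1266 tested there fell (78.5%, background 10.9%). Of the 461 that agreed up, 52 (11.3%) agreed up in R9del against 1.98% of all genes, and 64 of 351 tested rose (18.2%, background 3.77%). Of the 423 genes up and then down, 13 (3.07%, background 0.595%) took that course in R9del, and of the 426 down and then up, 3 did (0.704%, background 0.264%).

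Replication-dependent histone genes were the list with the largest share of members lower at both days, 15 of 28 tested (8.19% of all genes). The list held 56 members. Its medians were -1.41 at D1 and -1.19 at D5 against -0.11 and -0.01 for all genes. In the paired fit 10 fell (7.96% of all genes) and 7 passed the adjusted threshold (1.71%). The libraries were made with mRNA-Seq kits, and how these captured histone transcripts was not tested. Hist1h2an had 4388 counts in Ground_R9wt_D1 and 8 in Space_R9wt_D1, and 1410 and 10 counts at D5. The space counts are at or under the floor. By counting error alone, in steps, they were lower by a factor between 142 and 4235 at D1 and between 32.7 and 468 at D5. Hist1h2ah, Hist1h2ad and Hist1h2aj had 54.2 to 62.7 CPM on the ground and 0.132 to 0.205 CPM in space at D1. Hist1h2aj is annotated as a pseudogene and was not on the list. These genes are near-identical copies: 7.55% to 32.99% of the 50-mers in their exons occur once in the genome. Values of single members, and the number of separate members that were lower, are therefore uncertain. Tmem121, a membrane protein whose 50-mers all occur once, had 2680 and 7 counts at D1, a factor between 86.4 and 2589, and 20.3 and 0.270 CPM at D5.

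SR proteins guide splice site choice. On a list of SR splicing factors, which also held Clk1, Clk2, Clk4 and Sfpq, 6 of 16 genes were lower at both days, against 8.19% of all genes. The medians were -1.57 and -1.15. In the paired fit 7 fell (7.96% of all genes) and 1 passed the adjusted threshold (1.71%). Srsf1 went from 111 to 15.5 CPM at D1 and from 377 to 12.3 CPM at D5 (log2 fold change -3.89 ± 0.62, edgeR adjusted p = 0.0248). Srsf6 went from 235 to 28.8 CPM and from 135 to 43.3 CPM. The Srsf1 level was highest in Ground_R9wt_D5, and both space libraries were below both ground libraries.

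Among nuclear genes of the mitochondrial ribosome and of oxidative phosphorylation, the share that agreed down was near that of all genes. Of 75 genes of the mitochondrial ribosome, 7 agreed down (8.19% of all genes did), 20 were lower at D1 only (8.85% of all genes) and 5 at D5 only (8.66%). The medians were -0.83 and -0.37, and none was 2-fold higher at either day. In the paired fit 9 fell (7.96% of all genes) and 5 passed the adjusted threshold (1.71%). Of 78 nuclear genes of oxidative phosphorylation, 5 agreed down, 10 were lower at D1 only and 60 passed 2-fold at neither day (47.1% of all genes). The medians were -0.51 and -0.36. In the paired fit 6 fell, where 7.96% of all genes did, and 3 passed the adjusted threshold (1.71%). Cyc1, cytochrome c1, went from 677 to 50.8 CPM and from 603 to 50.1 CPM (log2 fold change -3.66 ± 0.41), while Atp5b, the beta subunit of ATP synthase, stood at 2481 and 2344 CPM at D1 and 2163 and 1868 CPM at D5. The list thus held genes with large and with small differences side by side. Of the 13 mitochondrially encoded genes, 4 agreed down, 4 were lower at D1 only and 2 were down and then up, against 8.19%, 8.85% and 2.56% of all genes. Among them mt-Nd6, of complex I, went from 562 to 75.1 CPM and from 157 to 43.3 CPM, and mt-Cytb, of complex III, reversed with 2269 and 777 CPM at D1 and 343 and 843 CPM at D5.

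Immediate early genes, which answer growth factors and stress within minutes, split. Ier2 went from 406 to 20.2 CPM at D1 and from 184 to 36.7 CPM at D5 (log2 fold change -3.33 ± 0.58, edgeR adjusted p = 0.0341). Junb, a subunit of AP-1, went from 85.6 to 11.7 CPM and from 135 to 18.4 CPM (log2 fold change -2.88 ± 0.46). Dusp1, a phosphatase of MAP kinases, and Jun also agreed down and passed the adjusted threshold. Egr1 and Ier3 did not follow: Egr1, a zinc finger factor of the serum response, had 30.7 and 12.3 CPM at D1 and 9.49 and 67.6 CPM at D5. Across the list 4 of 16 agreed down, 2 were down and then up and 1 agreed up, against 8.19%, 2.56% and 2.77% of all genes, with medians of -0.65 and -0.25.

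Of 23 p53 genes and targets tested, 8 were higher in space at D1 only and 5 agreed down, against 8.66% and 8.19% of all genes (medians 0.69 and -0.54). Mdm2, the ubiquitin ligase of p53, went from 113 to 341 CPM at D1 and stood at 419 and 417 CPM at D5. Btg2, which restrains proliferation, went from 119 to 383 CPM at D1 and stood at 456 and 351 CPM at D5. For both, Ground_R9wt_D1 was the lowest library and the other 3 lay closer together. Cdkn1a, the cyclin-dependent kinase inhibitor p21, had 225 and 339 CPM at D1 and 1010 and 357 CPM at D5. The targets that were lower at both days included Phlda3, an inhibitor of Akt, with 140 and 8.50 CPM at D1 and 373 and 13.1 CPM at D5 (log2 fold change -4.44 ± 0.48, edgeR adjusted p = 0.0113), and Gadd45a, of the growth arrest family, with 46.6 and 2.49 CPM and 57.2 and 6.09 CPM. Of the list, 6 genes fell and 1 rose at the unadjusted threshold (7.96% and 2.55% of all genes), and 3 of those that fell passed the adjusted one.

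For DNA repair, neither day passed 2-fold for 19 of 26 genes of nucleotide excision repair, 13 of 20 of base excision repair, 13 of 22 of break sensing and end joining and 16 of 25 of homologous recombination and the Fanconi pathway, as for 47.1% of all genes. The members that agreed down numbered 3, 1, 3 and 1 in these lists, where 8.19% of all genes agreed down. In the same order the medians were -0.45, 0.19, 0.004 and 0.21 at D1, against -0.11 for all genes. At D5 they were 0.11, 0.01, 0.20 and 0.69, against -0.01 for all genes. H2afx, the histone variant phosphorylated at breaks, went from 744 to 13.97 CPM at D1 and from 372 to 31 CPM at D5 (log2 fold change -4.66 ± 0.63, edgeR adjusted p = 0.0151). Rad23b, which carries damage recognition with Xpc, went from 512 to 75.5 CPM and from 330 to 81.9 CPM. Parp1 was at 459 and 606 CPM at D1 and 410 and 546 CPM at D5. Of 28 DNA replication genes, 20 passed 2-fold at neither day, and 19 had their lowest level in Ground_R9wt_D5, as did 25.6% of all genes.

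Genes of the Nodal pathway were among those lower at D1 and higher at D5. Nodal is a TGF-beta ligand that acts with the coreceptor Tdgf1 (Cripto) through Smad2 and Foxh1, is matured by the convertases Furin and Pcsk6, and induces its own inhibitors Lefty1 and Lefty2. Of 14 genes tested, 6 reversed in this way and 3 were higher at D5 only, against 2.56% and 10.7% of all genes (medians -0.97 and 1.40). Lefty1 had 460 CPM in Ground_R9wt_D1 and 12.5 CPM in Space_R9wt_D1, then 7.05 CPM in Ground_R9wt_D5 and 147 CPM in Space_R9wt_D5. Lefty2 had 159, 8.93, 5.35 and 108 CPM in the same order. In both, Ground_R9wt_D1 and Space_R9wt_D5 were high and Space_R9wt_D1 and Ground_R9wt_D5 low, and no space or ground group stood apart from the other.

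Nodal itself had 35.7 and 19.3 CPM at D1 and 9.01 and 22.0 CPM at D5, log2 ratios of -0.89 and 1.29. Tdgf1 had 1108 and 452 CPM at D1 and 196 and 726 CPM at D5. Smad7, an inhibitory Smad, had 29.6 and 3.58 CPM and then 4.84 and 38.1 CPM. The receptors named here and the transcription factor did not take this course. The receptor Acvr2a agreed down, the 1 member of 14 tested to do so, against 8.19% of all genes. Acvr1b went from 46.7 to 112 CPM at D1 and stood at 55.0 and 68.1 CPM at D5, Acvr2b differed by less than 2-fold at both days, and Foxh1 had 56.9 and 116 CPM and then 67.6 and 52.6 CPM. In R9del the log2 ratios of Lefty1 were -1.74 at D1 and -0.39 at D5, and those of Lefty2 were -1.28 and 1.06. The 2 genes are near copies, and 80.6% and 84.6% of their 50-mers occur once in the genome.

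**Figure D4:**
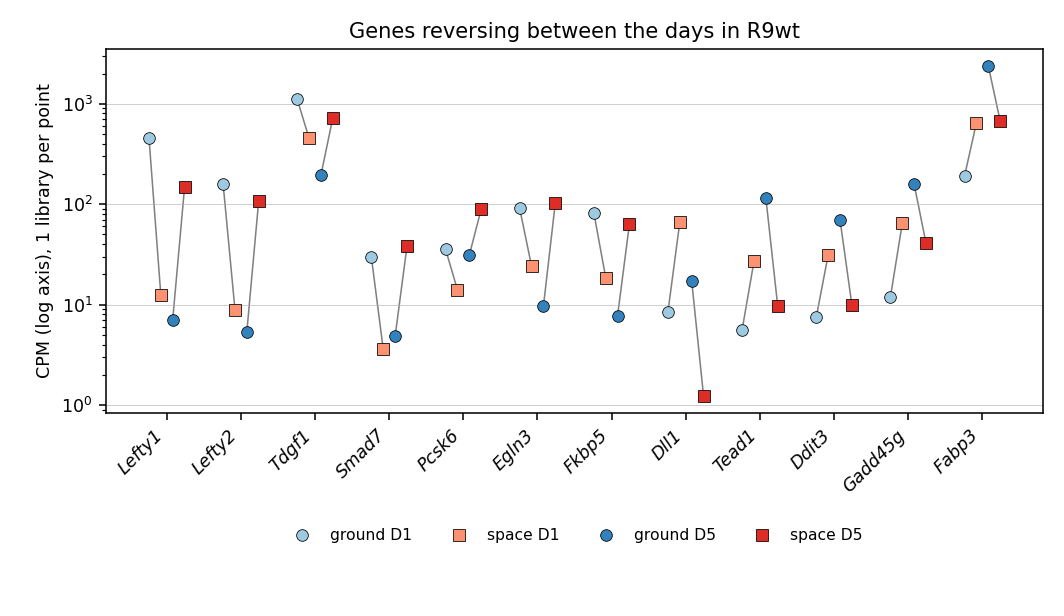
CPM on a log axis in the 4 R9wt libraries for 12 genes that reversed between the days; circles are ground and squares space, light for D1 and dark for D5, 1 library a point, and lines join the pairs. Lefty1 falls from 460 to 12.5 CPM in the D1 pair and rises from 7.05 to 147 CPM in the D5 pair, while Fabp3 rises from 192 to 646 CPM and falls from 2388 to 674 CPM.

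Pluripotency genes fell into several classes. Of 19 naive genes, 6 were lower at D1 only, 3 were down and then up, 2 were higher at D5 only and 3 passed 2-fold at neither day, against 8.85%, 2.56%, 10.7% and 47.1% of all genes (medians -1.17 and -0.43, the latter 0.23 after centring on base composition and length). Zfp42 (Rex1) had 610 and 82.5 CPM at D1 and 217 and 112 CPM at D5. Sox2 had 249 and 83.0 CPM and then 147 and 122 CPM, Pou5f1 1770 and 955 CPM and then 959 and 931 CPM, and Nanog 397 and 203 CPM and then 229 and 624 CPM. Ground_R9wt_D1 held the highest Zfp42, Sox2 and Pou5f1, and Space_R9wt_D5 the highest Nanog. Klf5, which sustains self-renewal, agreed down with 270 and 34.8 CPM and 172 and 57.5 CPM (log2 fold change -2.27 ± 0.49, edgeR adjusted p = 0.0657).

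Of 15 genes of the formative and primed states, 4 were down and then up and 2 agreed down, against 2.56% and 8.19% of all genes (medians -1.19 and 0.64). Otx2, a head organizer factor, had 60.8 and 26.5 CPM at D1 and 10.9 and 61.5 CPM at D5. Other genes of the same course were Fkbp5, a cochaperone of steroid receptors, with 82.0 and 18.6 CPM and then 7.75 and 63.5 CPM, Map3k7, the kinase TAK1, with 22.1 and 4.95 CPM and then 2.53 and 21.2 CPM, and Myc, with 12.7 and 3.96 CPM and then 2.36 and 11.6 CPM. Plac1, a placental gene, was at 1.07 CPM or less except in Space_R9wt_D5, with 0.445, 0.103 and 1.07 CPM in Ground_R9wt_D1, Space_R9wt_D1 and Ground_R9wt_D5 and 40.4 CPM in Space_R9wt_D5. Its D1 ratio rests on 7 counts in Space_R9wt_D1, under the floor, and by counting error that library was lower by a factor between 1.04 and 43.0. Actb, the beta-actin gene often used as a reference, had 1440 and 453 CPM and then 674 and 1670 CPM.

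The opposite course, higher at D1 and lower at D5, was led by Dll1, a Notch ligand, with 8.51 CPM in Ground_R9wt_D1 and 66.9 CPM in Space_R9wt_D1, then 17.1 CPM in Ground_R9wt_D5 and 1.22 CPM in Space_R9wt_D5. Tead1, the partner of Yap, had 5.63 and 27.03 CPM and then 115 and 9.69 CPM, although 34.2% of its exon bases are shared with another gene. Ddit3 (CHOP), of the integrated stress response, had 7.499 and 31.1 CPM and then 70.2 and 9.94 CPM. Gadd45g had 11.9 and 64.4 CPM and then 158 and 41.0 CPM. In Tead1, Ddit3 and Gadd45g the highest library was Ground_R9wt_D5 and the lowest Ground_R9wt_D1, so the 2 ground libraries enclosed the space libraries. Fabp3, a fatty acid binding protein, followed with 192 and 646 CPM and then 2388 and 674 CPM, and 45.1% of its 50-mers occur once in the genome. Phc3, of Polycomb, Mob1a, of the Hippo pathway, Eln, the elastin gene, and Dpm1, of dolichol phosphate mannose synthesis, with 38.4% of its exon bases shared with another gene, completed the leading genes, with mean levels of at least 10 CPM.

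A gene can reverse only if its change from D1 to D5 differed between the locations. The values by location are given as a description, since the class fixes that the 2 changes differ by at least 4-fold. Of the genes up and then down, 61.9% changed at least 2-fold between the days both on the ground and in space, and of those down and then up 53.8% did; the share over all genes was 11.8%. The median ratio of D5 to D1 of the genes up and then down was 1.71 on the ground and -1.79 in space on the log2 scale, and for those down and then up -1.75 and 1.63. Over all 16648 genes, the log2 ratios of D5 to D1 on the ground and in space had a Pearson r of 0.0584 and a Spearman rho of -0.0220. This is across genes, which are not independent replicates, and each ratio rests on 2 libraries.

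Of 17 glycolysis genes, 8 were higher in space at D5 only, 1 at D1 only and 8 at neither day (medians -0.30 and 0.88), and of 22 hypoxia response genes, 8 were higher at D5 only, 2 agreed up, 1 agreed down, 2 were down and then up and 9 passed 2-fold at neither day (medians -0.28 and 1.17). Of all genes, 10.7% were higher at D5 only, 2.77% agreed up, 8.19% agreed down, 2.56% were down and then up and 47.1% passed 2-fold at neither day. Slc2a1, the glucose transporter GLUT1, had 1292 and 1074 CPM at D1 and 137 and 1711 CPM at D5. Ldha, lactate dehydrogenase, had 7239 and 5534 CPM and then 1602 and 5837 CPM. Hk2, hexokinase, had 317 and 282 CPM and then 86.9 and 669 CPM, and Bnip3, a mitophagy receptor, 307 and 288 CPM and then 43.9 and 330 CPM. In all of these the Ground_R9wt_D5 library stood below the other 3, which lay near each other except for the higher Hk2 in Space_R9wt_D5. Of the 35 genes on the lists of glycolysis and hypoxia, 26 (74.3%) had their lowest level in Ground_R9wt_D5, against 25.6% of all genes. In R9del the same lists had medians of 0.12 and -0.35 at D5.

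The prolyl hydroxylases Egln1 and Egln3, which mark the hypoxia-inducible factors for decay and are themselves induced by them, reversed. Egln3 had 90.7 and 24.2 CPM at D1 and 9.64 and 102 CPM at D5, and Egln1 49.8 and 23.5 CPM and then 13.7 and 72.6 CPM. P4ha1, a prolyl hydroxylase of collagen, and Kdm3a, a histone H3 demethylase, agreed up, with 163 and 438 CPM and 116 and 441 CPM for P4ha1. The hypoxia-inducible factors bind a core of ACGTG, and the promoters of 4 members that were higher at D5 are printed with each ACGTG, on either strand, in capitals. They run from 250 bases before to 50 after the transcription start in RefSeq's GRCm38.p6, at chr4:119108495-119108794 (Slc2a1, plus strand), chr7:138909457-138909756 (Bnip3, minus strand), chr8:124949205-124949504 (Egln1, minus strand) and chr12:54203825-54204124 (Egln3, minus strand).
Slc2a1: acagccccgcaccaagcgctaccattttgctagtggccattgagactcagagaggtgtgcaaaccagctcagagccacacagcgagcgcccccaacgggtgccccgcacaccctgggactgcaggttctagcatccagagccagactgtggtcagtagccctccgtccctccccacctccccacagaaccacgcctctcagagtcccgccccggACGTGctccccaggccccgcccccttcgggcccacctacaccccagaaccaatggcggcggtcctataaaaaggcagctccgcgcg
Bnip3: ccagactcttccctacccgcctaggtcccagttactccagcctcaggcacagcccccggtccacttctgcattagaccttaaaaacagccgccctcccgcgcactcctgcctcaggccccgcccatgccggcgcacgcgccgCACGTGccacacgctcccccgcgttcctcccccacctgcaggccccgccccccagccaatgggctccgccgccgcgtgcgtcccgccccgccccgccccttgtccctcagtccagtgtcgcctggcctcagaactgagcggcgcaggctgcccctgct
Egln1: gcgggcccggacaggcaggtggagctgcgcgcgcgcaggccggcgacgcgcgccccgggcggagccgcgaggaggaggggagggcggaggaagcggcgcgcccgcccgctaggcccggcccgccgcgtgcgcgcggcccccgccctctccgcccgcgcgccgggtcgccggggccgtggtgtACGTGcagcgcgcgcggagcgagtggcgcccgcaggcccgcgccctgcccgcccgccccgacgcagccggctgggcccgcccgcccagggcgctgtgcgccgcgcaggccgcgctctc
Egln3: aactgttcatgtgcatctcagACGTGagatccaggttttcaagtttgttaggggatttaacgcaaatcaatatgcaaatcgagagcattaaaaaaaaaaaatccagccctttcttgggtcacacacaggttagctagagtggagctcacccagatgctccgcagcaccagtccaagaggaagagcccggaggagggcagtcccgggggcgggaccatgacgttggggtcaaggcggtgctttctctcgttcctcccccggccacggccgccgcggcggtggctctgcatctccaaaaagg
In Bnip3 the matches on the 2 strands overlap. Of 23 promoters of the 18 hypoxia genes in the table, 15 (65.2%) held ACGTG, as did 14 of 28 (50%) of those of 17 glycolysis genes, against 19.6% of all 32851 promoters and 24.7% of those of the genes tested. For the genes down and then up the share was 22.9%, and for those that agreed down 23.02%. A match describes the letters in this window and is no sign of binding.

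Primitive endoderm genes were higher at D5 only in 10 of 17, against 10.7% of all genes (medians -0.15 and 1.43). Cubn, an endocytic receptor, had 8.66 and 4.87 CPM at D1 and 8.70 and 52.0 CPM at D5, and Dab2, its adaptor, 12.9 and 6.49 CPM and then 21.4 and 85.2 CPM. Pdgfra had 2.92 and 3.72 CPM and then 3.67 and 20.3 CPM, and Gata6, the factor that specifies the lineage, 3.14 and 1.77 CPM and then 4.49 and 12.8 CPM. Space_R9wt_D5 was the highest library for all 4. Sox17, Amn and Foxa2 went against the list and agreed down (3 of 17, against 8.19% of all genes), with 19.1 and 0.923 CPM and 47.6 and 1.96 CPM for Amn. Sox17 and Foxa2 had 4 and 7 counts in Space_R9wt_D1, under the floor. The list's median in R9del was also higher at D5, at 1.76.

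Of 10 mesendoderm genes tested, 5 agreed down, against 8.19% of all genes, 2 were up and then down, against 2.54%, and 1 each was lower at D1 only, higher at D5 only and lower at D5 only (medians -1.24 and -1.47), but the levels were low: T (Brachyury), the mesoderm factor, had 1.89 and 0.865 CPM at D1 and 2.38 and 1.15 CPM at D5.

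Lysosomal genes were higher at D1 only in 11 of 26 identifiers, against 8.66% of all genes (medians 0.85 and 0.23). Ctsd, cathepsin D, had 732 and 2643 CPM at D1 and 1392 and 1265 CPM at D5, and Neu1, a sialidase, 71.4 and 287 CPM and then 172 and 98.7 CPM. Of the list, 18 genes had their lowest level in Ground_R9wt_D1, against 22.6% of all genes. Proteasome subunits were lower at D1 only in 13 of 31, against 8.85% of all genes (medians -0.95 and -0.09, the latter 0.02 with library size alone), and 24 had their lowest level in Space_R9wt_D1, against 27.7% of all genes. Of the proteasome subunits, 25 had their highest level in Ground_R9wt_D1, against 26.6% of all genes. Psma3 had 591 and 250 CPM and then 384 and 446 CPM. The named genes with the largest rise at a single day and a log2 ratio under 0.5 at the other were Adnp, a chromatin regulator, at D1 (0.902 and 107 CPM, with 61.9 and 59.3 CPM at D5), whose exon bases are shared with another gene to 82.1%, and Foxm1 at D5 (1.25 and 29.2 CPM, with 30.3 and 21.9 CPM at D1), a factor of the G2 phase.

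**Figure D5:**
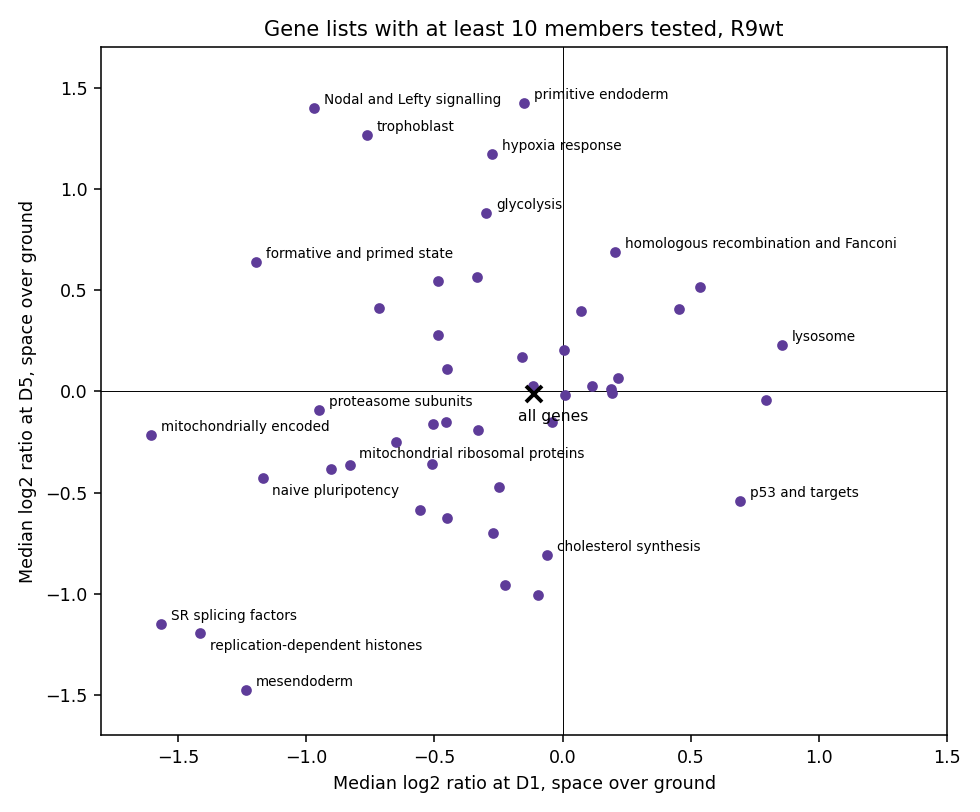
Median log2 ratio of space over ground at D1 (horizontal) and D5 (vertical) for each gene list with at least 10 members tested; the cross marks all genes. Nodal and Lefty signalling lies at -0.97 and 1.40, p53 and targets at 0.69 and -0.54, and replication-dependent histones at -1.41 and -1.19.

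The markers of embryonic stem cells Pou5f1, Sox2, Nanog and Zfp42 were present in all 4 libraries, at the levels given above. Of 8 fibroblast feeder markers tested, 1 agreed up, 1 was down and then up, 2 were higher at D5 only and 1 was lower at D5 only. The shares of all genes were 2.77%, 2.56%, 10.7% and 8.66%. The medians of the list were -0.05 and 0.71. Its summed level was 46.9, 59.98, 91.5 and 129 CPM in Ground_R9wt_D1, Space_R9wt_D1, Ground_R9wt_D5 and Space_R9wt_D5. Of the erythroid markers, 3 were tested, and the alpha globin genes Hba-a1 and Hba-a2 had 168 and 150 counts in Ground_R9wt_D5 and 0 in Space_R9wt_D5. Trophoblast markers had a median log2 ratio of D5 to D1 of 2.72 on the ground and 3.99 in space, against -0.01 and 0.04 for all genes. Of the 13 tested, 1 had its highest level in Ground_R9wt_D1. Krt18 stood at 79.2 and 109 CPM at D1 and 1357 and 1738 CPM at D5. Between space and ground, 3 of the 13 were down and then up, 3 higher at D5 only, 2 agreed down and 1 agreed up. The shares of all genes were 2.56%, 10.7%, 8.19% and 2.77%. The medians of space over ground were -0.76 at D1 and 1.27 at D5, and 3 of the 13 were higher in space at D1. The part of such cells in the differences between space and ground was not tested.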

How the data were processed

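RNA of 8 mESC libraries was sequenced by the authors as paired reads and aligned with TopHat2 2.0.9 to mm9, and whole-number counts per Ensembl gene were deposited; the counting program, its annotation and its use of strand are not given in the sources used here. All 4 R9wt libraries and, for comparison, the 4 R9del libraries were grouped by their labels. The members and gene lists were chosen with earlier results of these data known. Each condition was 1 library, so p-values measure only the spread between these libraries, which may be technical. With day as a block, this spread is how far the difference between space and ground varied from D1 to D5. It is not a spread between replicates, and the genes that reversed enter it. An exact permutation test of 2 against 2 libraries cannot go below 0.333.

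Genes that reached 1 CPM in any R9wt library were kept, scaled by TMM (factors 0.956 to 1.05) and fitted with edgeR 4.0.16 (R 4.3.3) by the quasi-likelihood test with day as a block, 1 residual degree of freedom and Benjamini-Hochberg adjustment. Calls needed a 2-fold change with p under 0.05, the fold and p thresholds stated by the study, with p here either unadjusted or adjusted. Printed CPM values are TMM-scaled. Ratios per day are log2 CPM with a prior count of 2 and have no test. Intervals of low counts are exact at 95% and cover counting error only. DESeq2 1.42.0, other filters, scalings and left-out libraries were alternatives, and centring on GC and length was chosen after seeing the data. Symbols and exons came from the mm9 annotation, which held 32722 of 50686 identifiers (64.6%) and 15063 of the 16648 tested. Strand-specific overlap could not be resolved.

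Genes were named by rule: the 8 with the largest smaller ratio in each of the 4 classes, 4 for each direction at a single day, the 5 up and 5 down with the smallest p, each at 10 CPM or more on average, the genes the study measured by PCR, and of each list the members past 2-fold at both days and the 3 most abundant. Nanog, Sox2, Zfp42, Nodal, Acvr1b, Acvr2b, Mdm2, Hk2, Bnip3, Cubn, Dab2, Pdgfra and Gata6 were chosen as list members after their values were seen. A gene that met the rule is not reported here.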

Additional observations from a re-analysis of the deposited data

Results flagged for a closer look

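For 38 named genes the difference between space and ground had opposite signs at D1 and D5 and passed 2-fold at both. The values are the log2 ratio at D5 minus that at D1. The difference was not tested, since each condition was 1 library.

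Lower at D1 and higher at D5 were the Nodal pathway genes, with 9.58 for Lefty1, 8.49 for Lefty2, 6.01 for Smad7, 3.18 for Tdgf1 and 2.86 for Pcsk6. Among genes of pluripotency and early lineages the difference was 4.17 for Prdm14, 2.88 for Klf2, 3.68 for Otx2, 3.96 for Myc, 7.08 for Plac1, 4.16 for Rhox6 and 4.34 for Rhox9. Among genes of hypoxia, metabolism and mitochondria it was 5.31 for Egln3, 3.49 for Egln1, 2.13 for Nqo1, 2.55 for Tfrc, 2.56 for mt-Nd1 and 2.84 for mt-Cytb. For the others it was 5.21 for Map3k7, 5.17 for Fkbp5, 3.95 for Srgn, 6.25 for Zfp819, 4.51 for Ier3, 4.15 for Egr1, 3.09 for Tmsb4x and 2.98 for Actb.

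The value of Plac1 rests at D1 on 7 counts in Space_R9wt_D1, under the floor, with a D1 factor between 1.04 and 43.0 by counting error, so that 2-fold at D1 is within its error.

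Higher at D1 and lower at D5 were 12 genes, with -6.75 for Dll1, -5.77 for Mob1a, -5.83 for Tead1, -5.49 for Phc3, -4.87 for Ddit3, -4.63 for Eln, -4.79 for Dpm1, -4.37 for Gadd45g, -3.58 for Fabp3, -3.22 for Mesp2, -3.19 for Gstt2 and -4.19 for Igf2.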

How the results depend on the processing

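The adjusted counts of the paired fit depended on the genes tested and the tool. They also changed where 1 library and the block on day were left out together. The 5 genes up became 8 when scaled by the size factors of DESeq2, 11 by library size alone, 9 among genes averaging 10 CPM or more, 135 in DESeq2's Wald test, 99 with all 8 libraries in one fit, and 0 without a filter or with filterByExpr. The 284 genes down became 0 without a filter or with filterByExpr, 833 in the Wald test (283 shared) and 812 with all 8 libraries (279 shared). At the unadjusted threshold the 425 genes up became 710 with library size alone, 914 in the Wald test and 742 with all 8 libraries. With 1 library left out and no block, 0 to 9 were up and 0 to 207 down after adjustment, and 499 to 748 up and 1094 to 1264 down before; both counts were 0 after adjustment without Space_R9wt_D1 or Space_R9wt_D5. The causes were not tested.

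Without the pairing on day (no replicate block), 308 genes were down after adjustment, of which 251 were shared, and 1439 down and 468 up before. Sun1 then passed the adjusted threshold (edgeR adjusted p = 0.0433). The labels give no replicate numbers, and the pairing is by culture time.

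The genes agreeing down, agreeing up, up and then down, and down and then up numbered 740, 141, 89 and 128 among genes averaging 10 CPM or more, 2322, 1339, 1012 and 1083 at 1.5-fold, and 539, 68, 45 and 60 at 4-fold. Without a filter the last 3 were 1482, 1246 and 1005. Centred on GC and length, 788 agreed down. The classes need all 4 libraries and were not recomputed with 1 left out. The log2 fold changes that changed sign with 1 library left out were those of Pax6 (-0.58 without Space_R9wt_D1, up to 4.34), H2-Eb1 (0.11 without Ground_R9wt_D5, down to -2.70), and, without Space_R9wt_D5, Gata3 (-1.001, up to 3.99), Ankrd1 (-0.59, up to 4.66) and Cyr61 (-0.50, up to 3.02). Depth limits genes under the floor of 10 counts.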
